A study of Mus musculus with 8 samples.

Results

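The hydrolases of the intestinal brush border were followed through 8 arrays of mouse small intestine. The 9 genes were lactase (Lct), sucrase-isomaltase (Sis), maltase-glucoamylase (Mgam), trehalase (Treh), aminopeptidase N (Anpep), glutamyl aminopeptidase (Enpep), dipeptidyl peptidase 4 (Dpp4), angiotensin-converting enzyme (Ace) and meprin A subunit alpha (Mep1a). They were found by the gene name that the array files give to each probe, which returned 10 probes for the 9 genes, out of 39429 probes in all. All 9 genes were among the 21806 genes kept for testing, and no member was lost to the filter on dim probes. The tissue came from female BALB/cA Jcl mice aged 8 weeks, and jejunum is the segment given in the design text. One group had received saline and 0 Gy. The other groups had received saline, FGF1 (fibroblast growth factor 1) or FGF1/CPP-C, which the labels name and do not describe, by intraperitoneal injection and then 8 Gy of carbon ions, with 12 h of pretreatment, and tissue was taken 4 h after irradiation. Every group had 2 arrays, replicate 1 on slide 1 and replicate 2 on slide 2, and growth factor without irradiation was not among the groups. No label states that the 2 arrays of a group stem from different animals. All p-values therefore rest on a spread between arrays that may not be a spread between animals.

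Brush border hydrolases are membrane-anchored enzymes on the microvilli of absorptive enterocytes, where they finish the digestion of sugars and peptides before uptake. Disaccharidases release glucose, galactose and fructose, while aminopeptidases and dipeptidases release amino acids and short peptides. Within the epithelium the enzymes are made mainly by differentiated cells of the villus rather than dividing cells of the crypt. Their amounts differ along the length of the intestine. Transcription of several of them depends on CDX and GATA factors, among others, of which the sucrase-isomaltase and lactase promoters are textbook examples.

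The promoters of Lct, Sis and Mgam are shown because disaccharidases are among the classic targets of these factors. That of Treh, also a disaccharidase, held neither motif described below and is not shown. Each window runs from 250 bases before to 50 bases after the start of the gene in RefSeq (GRCm38.p6), read 5′ to 3′ on the strand of the gene. Capitals mark matches on either strand to the letters of 2 motifs, none of which overlapped another here. The core bound by CDX proteins was searched as TTTATNG. The site of the zinc finger GATA factors was searched as AGATAA.
Lct promoter (chr1:128328269-128328568, minus strand): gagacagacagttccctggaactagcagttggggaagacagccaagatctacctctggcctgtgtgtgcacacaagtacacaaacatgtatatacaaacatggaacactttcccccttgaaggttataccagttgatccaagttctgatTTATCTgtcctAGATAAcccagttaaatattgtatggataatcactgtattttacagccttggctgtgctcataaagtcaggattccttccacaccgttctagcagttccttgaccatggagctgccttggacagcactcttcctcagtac
Sis promoter (chr3:72967814-72968113, minus strand): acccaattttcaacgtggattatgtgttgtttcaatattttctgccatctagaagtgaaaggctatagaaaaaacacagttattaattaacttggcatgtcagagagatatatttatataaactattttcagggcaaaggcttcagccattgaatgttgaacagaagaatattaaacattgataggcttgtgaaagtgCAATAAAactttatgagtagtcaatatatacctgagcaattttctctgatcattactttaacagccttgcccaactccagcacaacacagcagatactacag
Mgam promoter (chr6:40628581-40628880, plus strand): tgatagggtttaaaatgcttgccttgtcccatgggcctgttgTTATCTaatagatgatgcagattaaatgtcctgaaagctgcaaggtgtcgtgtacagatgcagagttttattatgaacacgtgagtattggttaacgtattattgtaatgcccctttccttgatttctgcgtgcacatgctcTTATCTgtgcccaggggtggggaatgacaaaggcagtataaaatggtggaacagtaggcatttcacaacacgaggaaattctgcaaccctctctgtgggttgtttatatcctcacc

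The Lct window held the GATA letters at 2 places and the Mgam window at 2 places, while the Sis window held the CDX letters once, at position -52 from the start. Over the 9 genes, TTTATNG was found in 3 (Sis, Dpp4 and Mep1a), against 10.9% of 32851 RefSeq promoters of the same length, and AGATAA in 3 (Lct, Mgam and Dpp4), against 11.2%. Neither set of letters was in the windows of Treh, Anpep, Enpep or Ace, which has 2 start sites in the table. The GC content of these windows ran from 34.0% (Sis) to 72.3% (Anpep). A match is a run of letters and not a measured binding site.

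Mgam was the only member with more than 1 probe, and both are shown because they measure the same gene and can be set against each other.
Mgam probe used for the tests (not mapped to the genome in the array file): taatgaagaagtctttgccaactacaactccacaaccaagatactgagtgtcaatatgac
Second Mgam probe (mm9, chr6:40613529-40613588, plus strand): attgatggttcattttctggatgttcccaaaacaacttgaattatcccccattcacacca

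The other members had 1 probe of 60 bases each. In the mm9 coordinates of the array file these lay at chr1:130181389-130181448 (Lct), chr3:72692810-72692869 (Sis), chr9:44494328-44494387 (Treh), chr7:86966716-86966775 (Anpep), chr3:128972910-128972969 (Enpep), chr2:62170062-62170121 (Dpp4), chr11:105850398-105850457 (Ace) and chr17:43611284-43611343 (Mep1a). The array file names 3 RefSeq mRNAs for the Ace probe and 3 for the Treh probe, so their isoforms were measured together.

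All levels below are on a log2 scale on which 0 is the 75th percentile of the processed signal of that array. That percentile ranged from 1712 to 2132 intensity units, 66.9% to 71.1% of probes were well above background, and replicates had a Pearson r of 0.982 to 0.994 over genes, which are not independent replicates. With 2 arrays per group the number of arrays limits the precision, and an exact permutation test of a single value cannot go below p = 0.333. All 10 probes were well above background on every array where their spot was used, and none was saturated. The Sis spot carried an outlier mark for uneven signal on 3 arrays, both 0 Gy saline arrays and 8 Gy saline replicate 1, and was left out there.

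Transcripts of other tissues differed between arrays within some groups, and those of the antrum also between FGF1/CPP-C and the other groups. The median level of the 9 stomach antrum markers, all measured, was 3.06 in the first 0 Gy saline array, 4.49 in the second 8 Gy saline array and 2.81 in the first FGF1 array. It was -0.39, -1.64 and -1.55 in the other arrays of those groups, and -5.17 and -5.62 in the FGF1/CPP-C arrays. The summed level of this list ran from 9.68 to 10.20 in the 0 Gy saline group, from 8.82 to 10.25 in the 8 Gy saline group and from 8.79 to 10.02 in the FGF1 group, against -0.79 to -0.77 in the FGF1/CPP-C group, where 6 of 9 markers were well above background on each array. Of these markers Tff2, a trefoil peptide of antral and Brunner glands, was not well above background on either FGF1/CPP-C array and was between 8.18 and 9.01 on the other 6. The summed level of 10 measured of 12 pancreatic acinar markers was 9.24 in the first 0 Gy saline array and 7.27 in the second 8 Gy saline array. It was 2.18 in the first FGF1/CPP-C array and -0.70 to -0.22 on the other 5 arrays. Of the enterocyte reference genes, 12 of 12 were well above background on every array, which does not tell the segment of the intestine sampled.

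Lactase, which splits milk sugar, was highest on the FGF1/CPP-C arrays. Its level was 6.24 and 6.57 in 0 Gy saline (replicates 1 and 2), 6.51 and 5.93 in 8 Gy saline, 6.09 and 6.61 in FGF1, and 7.15 and 7.13 in FGF1/CPP-C. The first 3 groups overlapped, and both FGF1/CPP-C arrays lay above all 6 others. Sucrase-isomaltase, which digests sucrose and the branch points of starch, was 4.61 in 8 Gy saline replicate 2, 4.86 and 5.81 in FGF1, and 5.88 and 5.80 in FGF1/CPP-C. The FGF1 and FGF1/CPP-C arrays overlapped for Sis, since FGF1 replicate 2 lay just above FGF1/CPP-C replicate 2. The 3 marked spots, read in spite of their mark, gave 5.14 and 5.00 in 0 Gy saline and 5.46 in 8 Gy saline replicate 1.

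Maltase-glucoamylase, which releases glucose from starch fragments, varied little. Its level was 4.22 and 4.31 in 0 Gy saline, 4.61 and 4.18 in 8 Gy saline, 4.44 and 4.92 in FGF1, and 4.74 and 4.59 in FGF1/CPP-C, and the highest array was an FGF1 array. Its second probe had group means of 1.66 ± 0.31 in 0 Gy saline, 1.58 ± 0.38 in 8 Gy saline, 1.82 ± 0.36 in FGF1 and 1.87 ± 0.12 in FGF1/CPP-C (SD, n = 2), so the probes differed in which of the growth factor groups was higher, by less than the SD of either. Trehalase, which splits the fungal and insect sugar trehalose, was 5.83 and 6.03 in 0 Gy saline, 6.11 and 5.63 in 8 Gy saline, 5.84 and 6.00 in FGF1, and 6.26 and 6.13 in FGF1/CPP-C. The range of Treh over the 8 arrays, 0.63, was the narrowest of the 9 genes.

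Among the peptidases, aminopeptidase N, which removes neutral amino acids from peptides, was 6.32 and 6.90 in 0 Gy saline, 7.15 and 6.09 in 8 Gy saline, 6.65 and 6.50 in FGF1, and 7.57 and 7.5 in FGF1/CPP-C. Glutamyl aminopeptidase, which removes acidic amino acids and cleaves angiotensin II, was 0.81 and 1.14 in 0 Gy saline, 1.90 and 0.72 in 8 Gy saline, 1.23 and 1.39 in FGF1, and 2.18 and 2.30 in FGF1/CPP-C. In both genes 8 Gy saline replicate 1 was the next highest array after the FGF1/CPP-C pair and 8 Gy saline replicate 2 the lowest of all, so the widest gap within a group was between the irradiated saline arrays. The range over the 8 arrays was 1.49 for Anpep and 1.58 for Enpep, the widest of the 9.

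Dipeptidyl peptidase 4, which removes dipeptides ending in proline and inactivates incretin hormones, was 1.69 and 2.05 in 0 Gy saline, 2.44 and 1.51 in 8 Gy saline, 1.90 and 2.25 in FGF1, and 2.63 and 2.72 in FGF1/CPP-C. Angiotensin-converting enzyme, a dipeptidyl carboxypeptidase, was 1.01 and 1.18 in 0 Gy saline, 1.52 and 0.93 in 8 Gy saline, 1.33 and 1.48 in FGF1, and 2.10 and 2.00 in FGF1/CPP-C. Meprin A subunit alpha, part of a zinc endopeptidase, was 1.52 and 1.77 in 0 Gy saline, 2.05 and 1.74 in 8 Gy saline, 1.83 and 1.98 in FGF1, and 2.26 and 2.48 in FGF1/CPP-C. All of these genes had both FGF1/CPP-C arrays on top.

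The members thus shared an order of arrays. Of the 8 members with a value on all 8 arrays, 7 (all but Mgam) had the FGF1/CPP-C arrays as the 2 highest, an order that 9.88% of 21587 genes had. The lowest array was 8 Gy saline replicate 2 for 7 of the 8, and 0 Gy saline replicate 1 was the lowest for Mep1a. These are 2 of the 3 arrays with high antrum markers. The share of all genes with such a lowest array was not counted. Measured from each gene's own mean, the median of the 8 genes was 0.55 and 0.56 on the FGF1/CPP-C arrays, -0.43 and -0.14 in 0 Gy saline, 0.12 and -0.56 in 8 Gy saline, and -0.16 and 0.03 in FGF1. This order was not particular to the members. The same saline array was lowest, and the FGF1/CPP-C arrays highest, for other apical hydrolases (-0.32, 0.39 and 0.37). The enterocyte reference genes had that order too (-0.26, 0.19 and 0.16). For transporters of digestion products that array was also lowest (-0.46), but 8 Gy saline replicate 1 (0.241) lay between the FGF1/CPP-C arrays (0.243 and 0.22). Across the 8 arrays the closest pair was Dpp4 and Ace, with a root mean square difference of 0.14 between mean-centred levels, and the least alike were Mgam and Enpep (0.43).

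**Figure D1:**
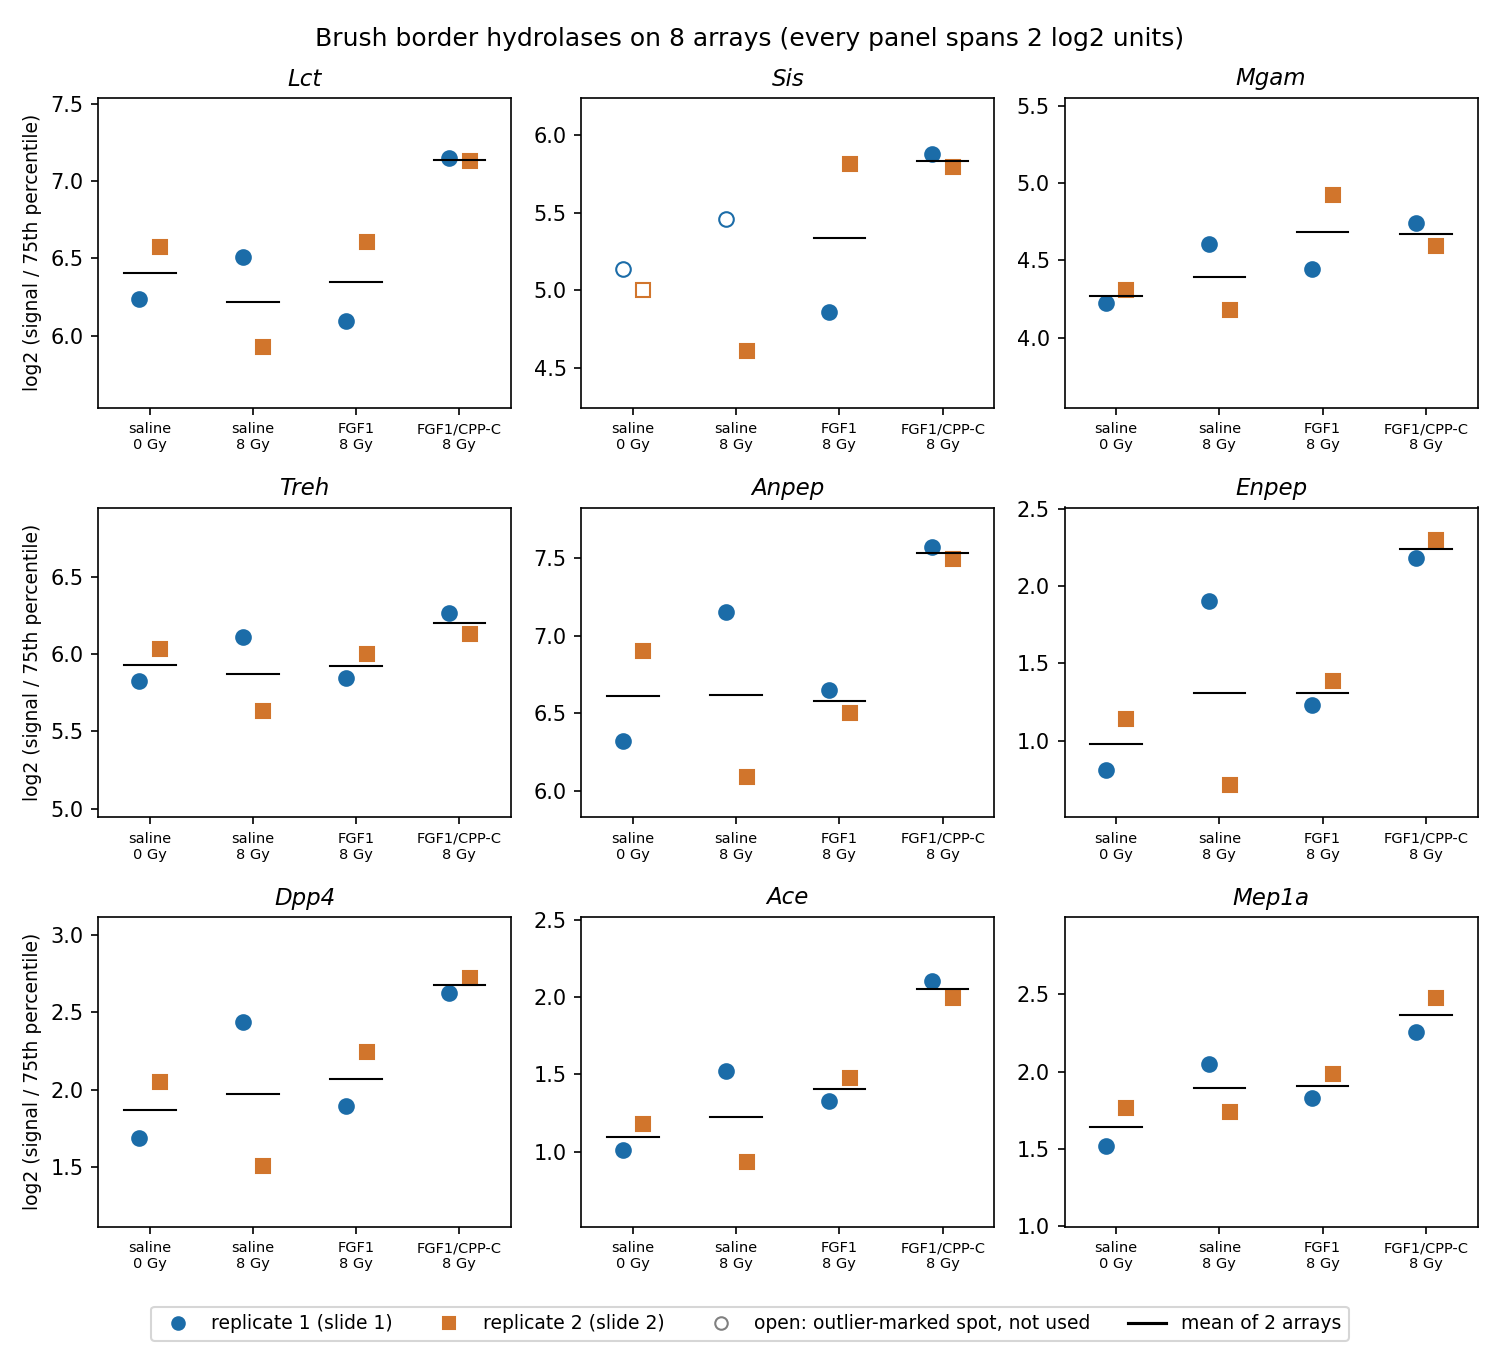
Normalised log2 signal (vertical axis, 0 is the 75th percentile of the array) of each hydrolase on the 8 arrays by group. Circles are replicate 1, squares replicate 2, bars the mean of 2 arrays and open symbols Sis spots with an outlier mark; the FGF1/CPP-C arrays are on top in Lct, Treh, Anpep, Enpep, Dpp4, Ace and Mep1a, and the 8 Gy saline arrays lie far apart in Anpep (7.15 and 6.09) and Enpep (1.90 and 0.72).

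The comparison of FGF1/CPP-C with saline in irradiated tissue asked how tissue pretreated with it differs from saline-treated tissue after 8 Gy. All 9 hydrolases had positive differences, from 0.28 (Mgam) to 1.23 (Sis) on the log2 scale, with a median of 0.82, where the median of 21783 genes was 0.01. None passed the test (limma, adjusted p at least 0.341 in every member), and of all genes 0.00918% were called, namely 2, both lower. These 2 genes, Tff2 and Gkn3, are on the antrum list and were looked up after their values had been seen. An unadjusted p under 0.05 was reached by 6 members (Lct, Sis, Anpep, Enpep, Ace and Mep1a) and by 11.3% of all genes. Sis had 1 array in the saline group here, and with its marked spots kept it left this count, which was then 5. Of 8 members with both arrays in each group, 7 did not overlap between the groups and were higher with FGF1/CPP-C, against 20.2% of all genes. A different number of enterocytes, a different amount of RNA per enterocyte and RNA from other cell types cannot be told apart in bulk tissue.

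Ace had the smallest p of the members, with a difference of 0.82 ± 0.20 (SE, a fold of 1.77) and a 95% interval from 0.33 to 1.32, at an adjusted p of 0.341. Lct differed by 0.92 ± 0.26 (1.89-fold, adjusted p = 0.372) and Mep1a by 0.47 ± 0.16 (1.39-fold, adjusted p = 0.410). The aminopeptidases were close to each other, Anpep at 0.91 ± 0.36 and Enpep at 0.93 ± 0.37, both with an adjusted p of 0.439. Sis differed by 1.23 ± 0.43 (adjusted p = 0.439), a value that rests on 1 array in the saline group and was 0.83 ± 0.37 with the marked spots kept. Dpp4 differed by 0.70 ± 0.32, with an interval from -0.07 to 1.47. The starch and trehalose enzymes had the smallest values, Treh 0.33 ± 0.18 and Mgam 0.28 ± 0.21, and the interval of each reached below 0.

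The size of these differences depended on which saline array was used. On slide 1 the FGF1/CPP-C array lay above the 8 Gy saline array by 0.64 for Lct, 0.58 for Ace, 0.42 for Anpep, 0.28 for Enpep, 0.21 for Mep1a and 0.19 for Dpp4. On slide 2 the same differences were 1.2, 1.06, 1.41, 1.58, 0.74 and 1.21. All 8 complete members were higher with FGF1/CPP-C on both slides, as were 32.6% of all genes. Without 8 Gy saline replicate 2, which left Sis without a value, the median of the members was 0.33, with 8 of 8 positive. Without 8 Gy saline replicate 1 it was 1.17, with 9 of 9 positive.

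FGF1/CPP-C was also set against FGF1 at the same dose of radiation. These differences use the same FGF1/CPP-C arrays as the last ones. Of the 9 members 8 had positive values, with a median of 0.60 (0.02 for all 21797 genes), and none passed, where 0.00918% of all genes did, again Tff2 and Gkn3, both lower with FGF1/CPP-C. Anpep differed by 0.96 ± 0.36, Enpep by 0.93 ± 0.37, Lct by 0.79 ± 0.26, Ace by 0.65 ± 0.20, Dpp4 by 0.60 ± 0.32 and Mep1a by 0.46 ± 0.16 (limma, adjusted p from 0.473 to 0.677). An unadjusted p under 0.05 was reached by 5 of them, all but Dpp4, and by 8.65% of all genes. These 6 genes and Treh (0.27 ± 0.18) did not overlap between the groups, against 24.5% of all genes (20.9% were lower without overlap), whereas Sis (0.50 ± 0.35) and Mgam (-0.01 ± 0.21) did. The same 7 were higher on both slides, as were 34.1% of all genes. On slides 1 and 2 the values were 0.92 and 0.99 for Anpep, 0.95 and 0.91 for Enpep, 0.43 and 0.50 for Mep1a and 1.05 and 0.52 for Lct. For Sis the slides gave 1.02 and -0.02, and for Mgam 0.30 and -0.33.

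**Figure D2:**
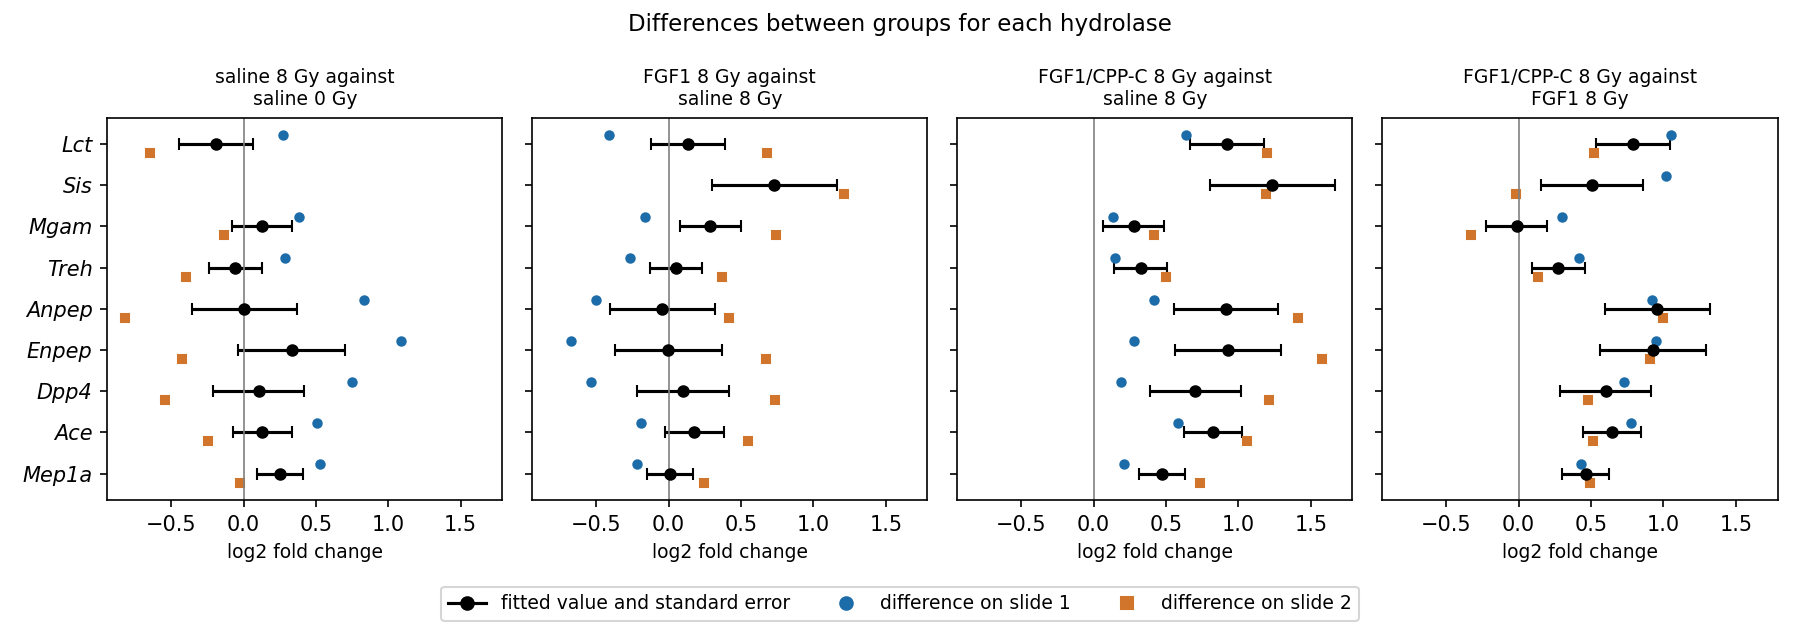
Difference between groups (horizontal axis, log2 fold change) for each hydrolase in 4 comparisons. Black points are limma values with their standard errors, blue circles the difference on slide 1 and orange squares that on slide 2; in the panels without FGF1/CPP-C the slides lie on opposite sides of 0 for all 8 complete members, while in the FGF1/CPP-C panels most lie to the right of 0, such as Anpep at 0.91 and 0.96.

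With carbon ions alone the members differed in opposite directions on the slides. In 8 Gy saline against 0 Gy saline, 0 of the 8 members that could be tested passed, where 0.478% of 21774 genes did (104, of which 83 were higher), and none of the 8 had an unadjusted p under 0.05, as 11.6% of all genes had. The median was 0.115, with 6 of 8 positive, and all 8 overlapped between the groups, where 16.2% of all genes were higher and 20.8% lower without overlap. None was higher on both slides, as 19.6% of all genes were. The largest difference was that of Enpep, 0.33 ± 0.37, with a 95% interval from -0.57 to 1.23, which spans 0. Lct was at -0.19 ± 0.26 and Mep1a at 0.25 ± 0.16. On slide 1 all 8 were higher after irradiation, from 0.27 (Lct) to 1.09 (Enpep), and on slide 2 all 8 were lower, from -0.82 (Anpep) to -0.02 (Mep1a). Each slide here holds 1 of the arrays with high antrum markers, the unirradiated one on slide 1 and the irradiated one on slide 2.

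FGF1 against saline in irradiated tissue addressed the growth factor without CPP-C. No hydrolase and no other gene passed in limma (0% of 21784 called, and 355, or 1.63%, with an unadjusted p under 0.05). No member had an unadjusted p under 0.05, and all 8 complete members overlapped between the groups, where 7.46% of all genes were higher and 10.6% lower without overlap. None was higher on both slides, as 13.3% of all genes were. The median was 0.10, with 7 of 9 positive. Anpep was at -0.04 ± 0.36 and Enpep at 0.00 ± 0.37, with intervals from -0.93 to 0.84 and from -0.90 to 0.90. The 8 complete members were lower with FGF1 on slide 1 and higher on slide 2, as for Lct at -0.41 and 0.68 and for Enpep at -0.67 and 0.67. Without 8 Gy saline replicate 2 the median was -0.17, with 1 of 8 positive, and without 8 Gy saline replicate 1 it was 0.49, with 9 of 9 positive.

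Other hydrolases of the apical membrane had differences of both signs. Of 16 such genes 15 were measured, and in FGF1/CPP-C against 8 Gy saline their median was 0.36, with 13 of 15 positive and none passing. Xpnpep2, a membrane aminopeptidase that cleaves before proline, had the smallest p (0.79 ± 0.13, adjusted p = 0.212), with 2.21 and 2.12 in 8 Gy saline and 2.93 and 2.98 in FGF1/CPP-C. The phosphatases did not share the sign, with Akp3 at -0.44 ± 0.17 and Alpi, the intestinal alkaline phosphatase, at -0.08 ± 0.12. Against FGF1 the median was 0.44, with 13 of 15 positive, and Enpp7, the sphingomyelinase of the brush border, differed by 1.70 ± 0.30 (adjusted p = 0.247). Enpp7 was a dim probe, at -6.72 to -4.72 on the 8 arrays, and was not well above background on FGF1 replicate 2, which was set to the floor, so its difference and error depend on that floor. Only carboxypeptidase M, Cpm, passed in any comparison among these 15 genes. It was higher after irradiation, 1.35 and 1.31 in 8 Gy saline against 0.54 and 0.44 in 0 Gy saline (0.84 ± 0.10, 1.79-fold, adjusted p = 0.0409), and did not pass under 15 of the 21 alternatives tried.

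The remaining enterocyte lists had smaller medians than the hydrolases. In FGF1/CPP-C against 8 Gy saline the median was 0.33 for 12 transporters of sugars, peptides and amino acids (12 of 12 positive), 0.32 for 12 genes of microvillus structure (12 of 12) and 0.27 for 14 transcription factors of enterocyte genes (12 of 14). None of these genes passed. Slc7a8, a basolateral amino acid transporter, was at 0.90 ± 0.28 and Slc7a7, another such transporter, at 0.66 ± 0.21 (adjusted p = 0.391 for both). Myo7b and Myo1a, motors of the microvillus tip and core, were at 0.53 ± 0.21 and 0.46 ± 0.18 (adjusted p = 0.434 and 0.428). Among the factors Isx was at 0.63 ± 0.19 and Cdx1 at 0.47 ± 0.17 (adjusted p = 0.391 and 0.419). Against FGF1 these 3 lists had medians of 0.23, 0.225 and 0.14, and Pdx1, a factor of the duodenum, was at -0.46 ± 0.15 (adjusted p = 0.482). Whether the hydrolases differ from these lists was not tested.

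**Figure D3:**
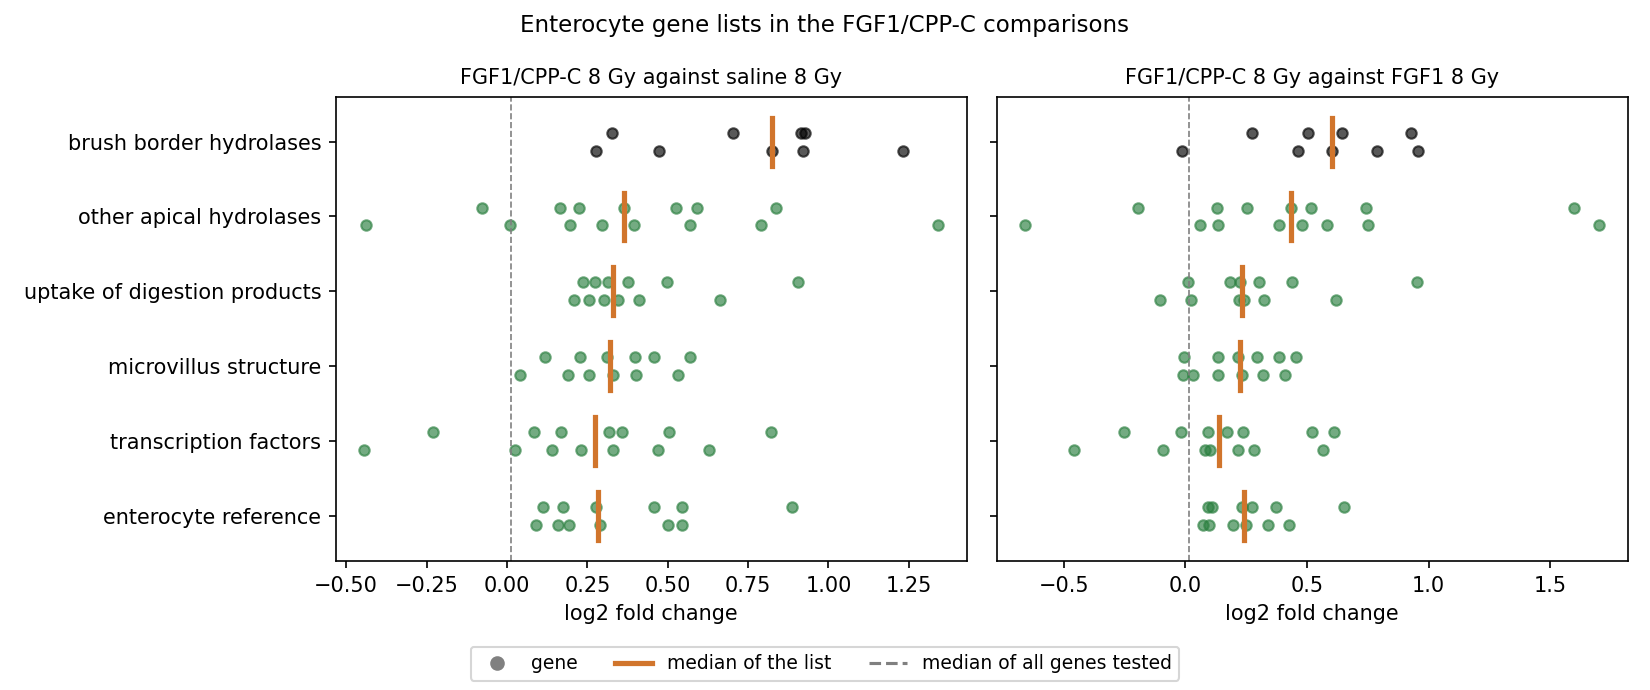
Difference (horizontal axis, log2 fold change) of each gene of 6 enterocyte lists in the FGF1/CPP-C comparisons. Each point is a gene, the orange bar the median of the list and the dashed line the median of all genes tested; the hydrolases have medians of 0.82 and 0.60, the enterocyte reference genes 0.28 and 0.24.

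The enterocyte reference, 12 genes mostly of fat handling (such as Fabp1, Apoa4 and Mttp) that include no member, was itself above saline with FGF1/CPP-C (median 0.28, 12 of 12 positive, none passing). When each array was centred on the median deviation of these 12 genes, a scaling chosen after the values had been seen, the members kept 9 of 9 positive with a median of 0.55, and none passed (smallest adjusted p = 0.310). Lct was at 0.65 ± 0.16, Ace at 0.55 ± 0.13, Mep1a at 0.20 ± 0.13, Treh at 0.05 ± 0.12 and Mgam at 0.0025 ± 0.14, so that the last 2 were close to 0. This scaling moved the median of all genes to -0.26. Centring on the median level of the same 12 genes moved it to -0.64, and the members then had a median of 0.17 with 6 of 9 positive, Mgam (-0.38), Treh (-0.33) and Mep1a (-0.18) changing sign. Against FGF1 the member medians were 0.41 and 0.16 under these scalings.

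Of the other marker lists, the summed levels of smooth muscle, T cell and proximal intestine genes did not overlap between FGF1/CPP-C and 8 Gy saline, while the summed endothelial level (2.58 to 2.73, against 2.65 to 2.72 in 8 Gy saline) and that of distal intestine genes (4.04 to 4.18, against 3.40 to 4.14) did. Against 8 Gy saline the 6 smooth muscle genes had a median of -0.57, with 6 of 6 below the saline arrays without overlap, as were 22.2% of all genes. Their summed level was 6.30 to 6.40 in FGF1/CPP-C, 6.66 to 6.73 in FGF1, 6.71 to 7.24 in 8 Gy saline and 6.84 to 6.97 in 0 Gy saline. The 6 measured T cell genes had a median of 0.72, with 6 of 6 above saline without overlap (20.2% of all genes), and a summed level of 2.90 to 3.07 against 2.05 to 2.64 in 8 Gy saline, 2.44 to 2.48 in FGF1 and 2.86 to 3.15 in 0 Gy saline. The 6 genes of the proximal intestine had a median of -0.50, with 5 of 6 negative, and a summed level of 7.26 to 7.37 against 7.86 to 8.06, 8.03 to 8.03 and 8.25 to 8.32. Trpv6, the calcium channel of the duodenum, was the lowest of these at -1.33 (adjusted p = 0.101). The 6 crypt base stem cell genes had a median of -0.32, with 4 of 6 negative and 2 positive. The positive ones were Lgr5 (0.90 ± 0.19), higher without overlap, and Axin2 (0.06 ± 0.24). The summed level of the 6 genes overlapped, at 2.72 to 2.91 in FGF1/CPP-C and 2.81 to 3.64 in 8 Gy saline. Measured from their own means, their median was -0.30 and 0.40 on 8 Gy saline replicates 1 and 2. It was -0.21 and -0.37 on the FGF1/CPP-C arrays. No gene of these lists passed in that comparison, and their part in the hydrolase differences was not tested.

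Without the 3 arrays with high antrum markers, which leaves 1 array in every group but FGF1/CPP-C, the members had a median of 0.33 against 8 Gy saline (8 of 8 positive) and 0.43 against FGF1 (8 of 9 positive), and none passed (adjusted p at least 0.552). The fit then has 1 residual degree of freedom and assumes that the lone arrays vary like the FGF1/CPP-C pair. Lct was then at 0.63 ± 0.10, Ace at 0.53 ± 0.11 and Anpep at 0.38 ± 0.11 against saline, and Anpep at 1.03 ± 0.11 against FGF1. Against FGF1 the other 8 members had smaller values without those arrays than with them: Enpep 0.85 (from 0.93), Ace 0.57 (0.65), Lct 0.53 (0.79), Dpp4 0.43 (0.60), Mep1a 0.38 (0.46), Treh 0.20 (0.27), Sis 0.03 (0.50) and Mgam -0.25 (-0.01). Against saline the 8 members with a value were smaller as well. Lct was 0.63 (from 0.92), Ace 0.53 (0.82), Anpep 0.38 (0.91) and Enpep 0.34 (0.93). Mep1a was 0.32 (0.47), Dpp4 0.24 (0.70), Treh 0.08 (0.33) and Mgam 0.06 (0.28). Both FGF1/CPP-C arrays lie at the low end of the antrum and proximal lists, so pretreatment and the piece of intestine sampled cannot be told apart by leaving out arrays.

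**Figure D4:**
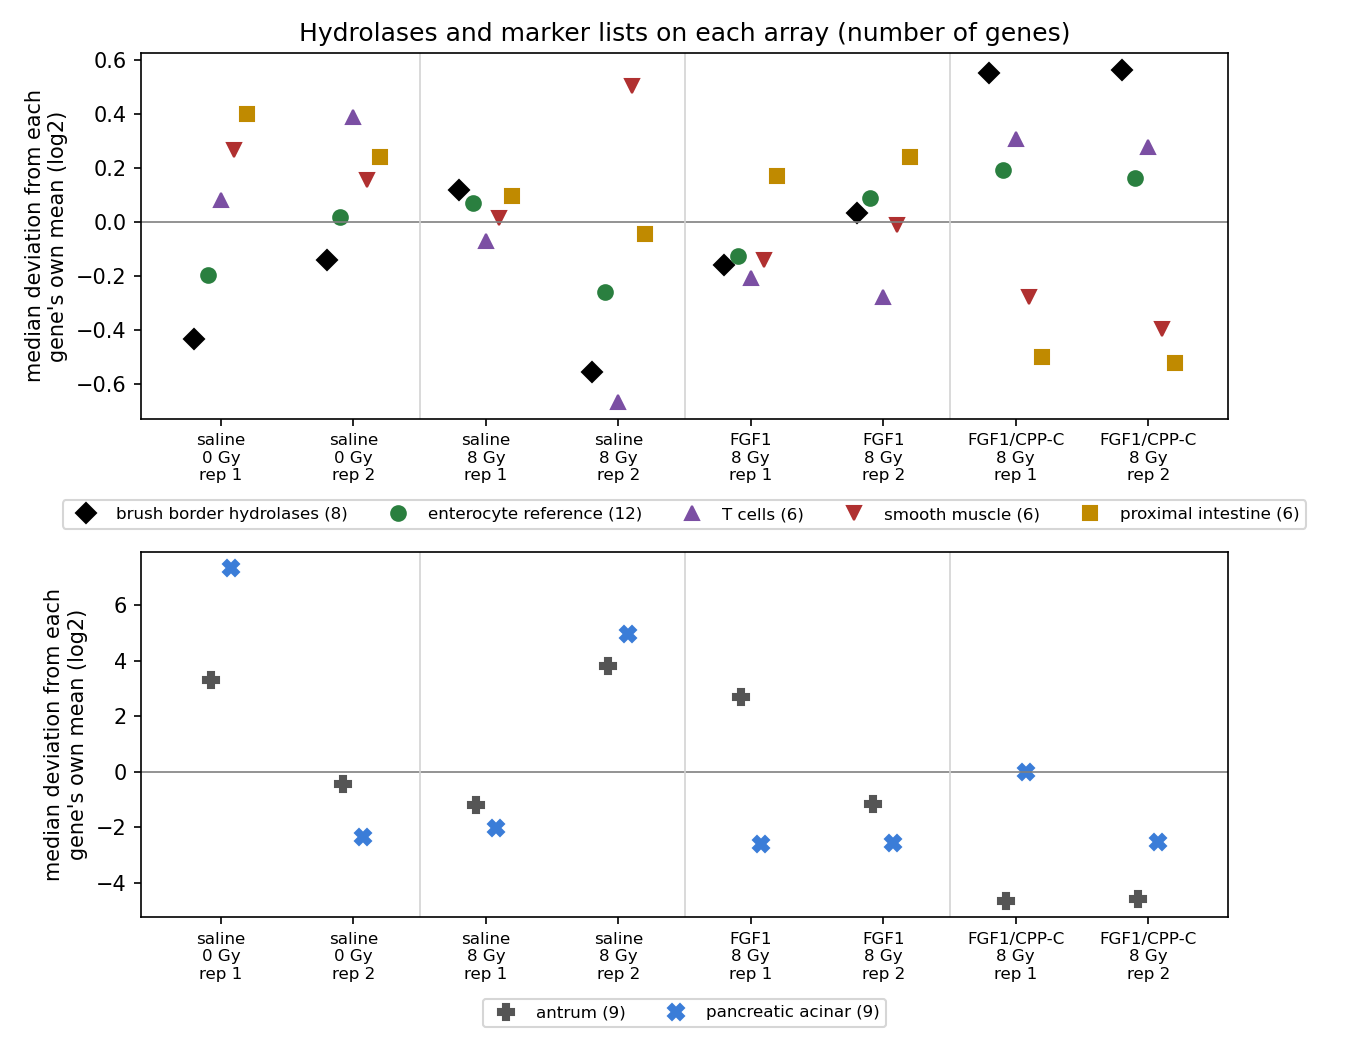
Median deviation of the genes of a list from their own means over the 8 arrays (vertical axis, log2), by array, for the 8 complete hydrolases and 4 marker lists (upper panel) and for stomach antrum and pancreatic acinar markers (lower panel, wider scale). The hydrolases are lowest on 8 Gy saline replicate 2 (-0.56) and highest on the FGF1/CPP-C arrays (0.55 and 0.56), where the antrum, proximal and smooth muscle lists have their lowest values (-4.65, -0.52 and -0.40 at the lowest).

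Genes whose pattern over the 8 arrays was most like a member were sought for the 5 complete members with a range above 1, among 4436 other genes with such a range. Likeness was the root mean square difference between mean-centred levels. For Lct these were Mtmr11, a myotubularin-related protein (0.079), and Dpep1, a membrane dipeptidase on the list of other apical hydrolases (0.090). For Anpep they were Soat2, the cholesterol acyltransferase of enterocytes (0.13), and Cd209b, a C-type lectin (0.13), and for Enpep Gchfr, a regulator of GTP cyclohydrolase (0.12), and Cndp2, a cytosolic dipeptidase (0.14). For Dpp4 they were Cox7a1, a subunit of cytochrome oxidase (0.062), and Tbc1d24 (0.079), and for Ace Pira7 (0.084) beside a transcript named in the array file by a sequence record only (0.083). Dpp4 and Ace were less alike (0.14) than either was to its nearest gene here, and the search ran over many more candidates than the 8 members.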

How the data were processed

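Expression was measured on 8 Agilent 1-colour arrays (Cy3), 4 groups of 2. Per the submitters' processing notes, the scanner software was Agilent Feature Extraction 9.5.3.1. Per the file headers, the deposited values are processed intensity on a linear scale after background subtraction by the authors' scanner software, not scaled between arrays. The deposited series matrix holds the same intensity values, equal to the processed signal with a ratio of 1 on each array, so linear, uncentred and with no ratio direction. Column medians were 674 and 743 for 0 Gy saline (replicates 1 and 2), 728 and 849 for 8 Gy saline, 762 and 814 for FGF1, and 692 and 816 for FGF1/CPP-C. The authors' own scaling and tests are not used here.

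The signals were divided by the 75th percentile of each array, given a floor of -6.72 (log2) and log2-transformed. Control spots (1377) and outlier-marked spots (152 to 333 per array) were left out. Spots other than controls, outlier-marked ones counted, numbered 43020 and stood for 39429 probes. These were named by accession through the RefSeq annotation of GRCm38.p6 (28330), by symbol (2204) or by the array file (8895). Probes well above background on both arrays of any group were kept (27469), and the brightest probe stood for a gene (21806 genes). The test was limma 3.58.1 (R 4.3.3, with data.table at version 1.17.8), fitted to 4 group means over all 8 arrays, which leaves 4 residual degrees of freedom. P-values were adjusted by Benjamini-Hochberg across every gene tested, with a threshold of 0.05. Figures used matplotlib 3.10.9 in Python 3.11.15. The test was checked on simulated data.

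The slide differences of 2 groups correlated across genes with r from -0.521 to 0.538. They also hold the antrum transcripts, high on different replicates, so they cannot show whether the slide pairs the arrays. The members, lists, tests and alternatives were chosen with earlier results of these data known. Named genes are all members, the list genes that passed or the 2 of smallest p in each list and comparison (not all are described), and the 2 most alike genes of each member with a range above 1. Akp3, Alpi, Trpv6, Tff2, Gkn3, Lgr5 and Axin2 were named after their values were seen. Alternatives were normexp (offset 50), quantile normalization, the series matrix, centring on enterocyte genes in 2 ways, 2 other filters, the mean of probes, the 2 groups alone, the slide as a block, another moderation, outlier-marked spots kept, and arrays left out. Protein sequences are not used here, and 1 item withheld for evaluation is not reported here.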

Additional observations from a re-analysis of the deposited data

How the results depend on the processing

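No hydrolase passed the limma test (Benjamini-Hochberg) in any comparison under any of the 21 alternatives. With 2 arrays per group, single arrays set many of the signs near 0. Leaving out 1 array at a time gave hydrolase medians (log2) of -0.28 to 0.41 for 8 Gy against 0 Gy saline, -0.17 to 0.49 for FGF1 against saline and 0.33 to 1.17 for FGF1/CPP-C against saline, with 0 to 41 genes called in the first, 2 to 7 in the last and 2 to 5 for FGF1/CPP-C against FGF1. For 8 Gy against 0 Gy these ranges were -0.16 to 0.42 (Ace), -0.53 to 0.54 (Anpep), -0.36 to 0.57 (Dpp4), -0.26 to 0.93 (Enpep), -0.48 to 0.10 (Lct), -0.090 to 0.34 (Mgam) and -0.30 to 0.18 (Treh). For FGF1 against saline they were -0.11 to 0.47 (Ace), -0.58 to 0.49 (Anpep), -0.36 to 0.56 (Dpp4), -0.59 to 0.59 (Enpep), -0.16 to 0.42 (Lct), -0.14 to 0.16 (Mep1a), -0.19 to 0.29 (Treh), -0.015 to 0.39 (Cdx1), -0.059 to 0.45 (Eps8) and -0.060 to 0.51 (Slc7a9), and for FGF1/CPP-C against FGF1 -0.25 to 0.23 (Mgam).

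Genes called for 8 Gy against 0 Gy numbered 9 with centring on the median deviation of the enterocyte genes (chosen after seeing the data), 34 with the series matrix, 5 with centring on their median level, 55 without the filter, 0 with the 2 groups only and 0 without the 3 arrays with high antrum markers. The replicate block gave 62, and whether the slide pairs the arrays could not be shown. For FGF1 against saline the mean of probes gave 2. For FGF1/CPP-C against saline the counts were 4 (deviation), 14 (level), 6 (normexp), 5 (quantile), 0 (series matrix), 1 (probes above background on all arrays), 7 (mean of probes) and 0 (without the 3 arrays). Against FGF1 they were 7, 17, 10, 13, 0, 1, 10 and 0 in the same order, 1 with the 2 groups only and 8 with trended, robust moderation.

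The hydrolase median of FGF1/CPP-C against saline was 0.55 with deviation centring, 0.17 with level centring and 0.33 without the 3 arrays, and against FGF1 0.16 with level centring. Signs turned under level centring in 8 Gy against 0 Gy for Anpep (-0.10) and Dpp4 (-0.0042), in FGF1 against saline for Ace (-0.027), Dpp4 (-0.11), Lct (-0.073), Mep1a (-0.20), Treh (-0.155), Cdx1 (-0.019) and Eps8 (-0.0083), in FGF1/CPP-C against saline for Mep1a (-0.18), Mgam (-0.38), Treh (-0.33), Cdx1 (-0.18), Cpm (-0.36), Isx (-0.025), Myo1a (-0.20) and Myo7b (-0.12), and against FGF1 for Treh (-0.17), Anks4b (-0.038) and Myo7b (-0.063). Deviation centring turned Mep1a (-0.067) and Treh (-0.026) in FGF1 against saline. Without the 3 arrays Treh turned in 8 Gy against 0 Gy (0.082), and Ace (-0.040), Dpp4 (-0.19), Mep1a (-0.063), Treh (-0.11) and Eps8 (-0.014) in FGF1 against saline. Keeping outlier-marked spots turned Anpep (-0.0077) in 8 Gy against 0 Gy and Enpep (0.022) in FGF1 against saline. Mep1a in FGF1 against saline also turned with normexp (-0.025), quantile normalization (-0.019) and the series matrix (-0.019), and the mean of probes turned Xpnpep2 there (-0.090) and Mgam against FGF1 (0.023). The cause was not tested.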
